A study of Mus musculus with 16 samples.

Results

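The comparison described here sets CD24+ dendritic cells (DCs) against CD172a+ DCs sorted from the spleen of the same mice. It uses the 8 spleen arrays of a series of 16 Affymetrix Mouse Gene 1.0 ST arrays, chosen by their labels: 4 arrays of CD24+ cells and 4 arrays of CD172a+ cells. The cells came from 4 mice on the B6 strain, and each mouse gave 1 array of either subset, so that every difference below was taken within a mouse. Mice of the KO group carried Ciita -/- and Zbtb46 GFP/+ (2 mice). Mice of the WT group carried Ciita +/+ and Zbtb46 GFP/+ (2 mice). In every mouse of either group GFP thus stood in 1 allele of Zbtb46, whose product marks the classical DC lineage, and the spleens were labelled as homeostatic. The sources used here give neither age nor sex. The remaining 8 arrays held the same subsets and genotypes from bone marrow grown for 9 days in Flt3l, to which gamma interferon and then, for 4 hours, LPS had been added.

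Classical DCs take up antigen and show it to T cells. They fall into a cDC1 lineage, which depends on the factors Irf8 and Batf3, carries Xcr1 and Clec9a, takes up dying cells and cross-presents their antigens to CD8 T cells, and a cDC2 lineage, which carries Sirpa (CD172a), often depends on Irf4, and primes mainly CD4 T cells. CD24 is used to sort the cDC1 and CD172a the cDC2 of the mouse spleen.

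The 8 arrays fell into their subsets. The median log2 signal per array was 7.29 to 7.32. Across all 19938 tested genes, Pearson correlations were 0.9955 to 0.9968 among the CD24+ arrays, 0.9958 to 0.9974 among the CD172a+ arrays and 0.9635 to 0.9704 between the subsets. The main axis of variation, with 85.1% of the variance, separated the subsets, and the next axis, with 3.76%, separated KO from WT arrays. The Y-linked genes Eif2s3y and Uty read 3.82 to 4.0 and 4.60 to 4.70 over the 8 arrays, while Xist, transcribed from the inactive X chromosome, read 11.82 to 12.43. The Y-linked readings are examples of low signals on the spleen arrays, whose lowest values were 3.063 to 3.125 per array. In the 8 culture arrays these genes went the other way, with Eif2s3y at 8.15 to 8.83, Uty at 7.16 to 7.50 and Xist at 4.98 to 5.29. The CD24+ array of KO mouse 2 was the highest for markers of neutrophils and their precursors, and counts that moved without this mouse are given beside the results they touch. Values per array are log2 signals and are listed in the order KO mouse 1, KO mouse 2, WT mouse 1 and WT mouse 2. Differences are CD24+ minus CD172a+ on the log2 scale with their standard error (SE, n = 4 mice), from a limma fit with mouse as a block, and adjusted p is after the Benjamini-Hochberg method over all 19938 genes. The number of arrays limits the precision, and each array measures sorted cells in bulk, so fewer cells with a transcript and less transcript per cell cannot be told apart.

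The sorted cells matched their labels by the markers of the lineages. Xcr1, the receptor for the chemokine Xcl1, read 12.14, 12.17, 11.92 and 12.05 in CD24+ cells, against 6.48, 6.66, 6.68 and 6.82 in CD172a+ cells. Clec9a, a receptor for dead cells, read 12.55, 12.68, 12.52 and 12.46 in CD24+ cells, against 7.50, 7.81, 7.58 and 7.70 in CD172a+ cells. Every CD24+ array stood above every CD172a+ array for both genes, with differences of 5.41 ± 0.08 (adjusted p = 3.72e-10 by limma) and 4.90 ± 0.06 (adjusted p = 1.76e-10). Clec4a4, the lectin receptor recognized by the antibody 33D1 and found on splenic cDC2, read 4.86, 4.76, 4.83 and 4.73 in CD24+ cells, against 10.67, 10.53, 10.65 and 10.76 in CD172a+ cells. Its CD24+ readings lay just above those of the Y-linked genes, and the difference was -5.86 ± 0.06 (adjusted p = 1.67e-10). With CD24+ readings that close to the Y-linked readings, its size may be understated. The sorting antigens themselves served to choose the cells, so their levels are a description of the sort. Cd24a read 12.67, 12.71, 12.68 and 12.71 in CD24+ cells and 10.44, 10.78, 10.67 and 10.74 in CD172a+ cells, and Sirpa read 8.84, 8.43, 8.83 and 8.92 in CD24+ cells and 12.70, 12.58, 12.68 and 12.64 in CD172a+ cells. Cd24a transcript was thus well above the Y-linked readings in the CD172a+ cells too.

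**Figure D1:**
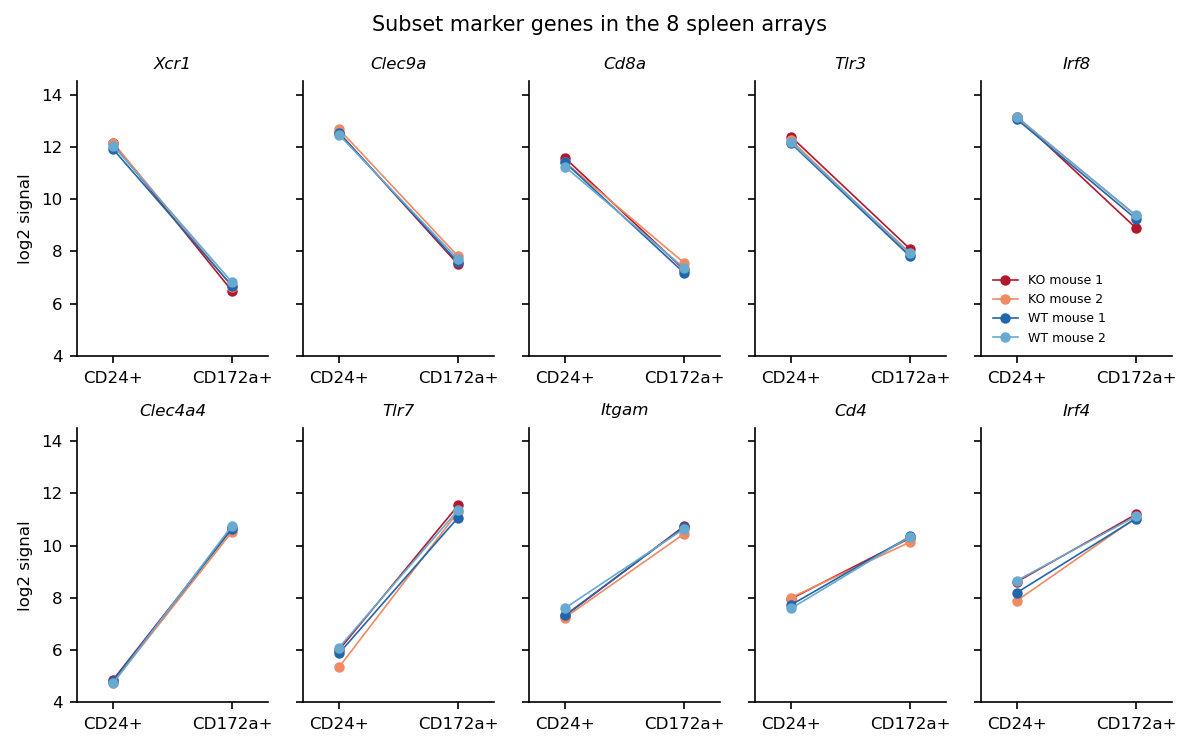
Log2 signal (vertical axis) of 10 subset genes in the CD24+ and CD172a+ arrays of each mouse (points, joined within a mouse, KO in red and orange, WT in blue). The upper 5 genes were higher in every CD24+ array, for example Xcr1 at 11.92 to 12.17, against 6.48 to 6.82, and the lower 5 were lower in every CD24+ array.

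Of the 19938 genes, 6584 (33.0%) differed between the subsets at an adjusted p under 0.05, 3475 (17.4%) higher and 3109 (15.6%) lower in CD24+ cells. Of these, 837 differed by at least 2-fold, 378 higher and 459 lower, and 42 and 35 by at least 8-fold. The 4 CD24+ and the 4 CD172a+ arrays did not overlap for 6644 genes (33.3%). All 4 mice had the same direction for 6410 of the 6584 genes called. The median difference over all genes was 0.03 and the median absolute difference 0.11. Counts called in the gene lists below are to be read beside these shares. When only genes above the median level were tested, 5811 passed, so the share among such genes is higher. In most lists the majority of members lay above that level. Without 1 mouse, 5251 to 6588 genes passed, and 835 of the 837 genes of at least 2-fold passed with each mouse left out.

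**Figure D2:**
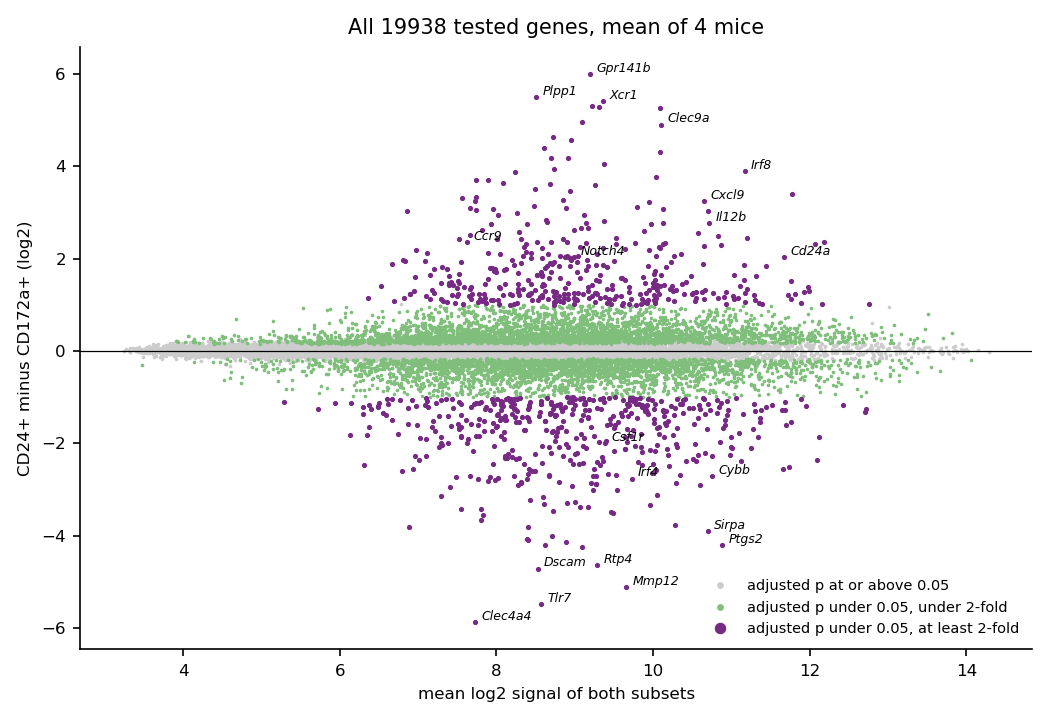
Mean log2 signal of both subsets (horizontal axis) and difference CD24+ minus CD172a+ (vertical axis, log2, mean of 4 mice) of all 19938 genes. Purple points mark the 837 genes with an adjusted p under 0.05 and at least 2-fold, which reached from -5.86 (Clec4a4, read near the Y-linked genes in CD24+ cells) to 5.99 (Gpr141b).

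Genes known from cDC1 were higher in the CD24+ cells. Of the 23 tested genes of the cDC1 list, 23 were higher and 0 lower (33.0% of all genes were called). The median difference of the list was 3.78, beside 0.03 over all genes. This list and that of cDC2 were drawn up from knowledge of these subsets and with earlier results of these data known. Their direction is therefore a description and no independent check of the labels. Plpp1, a lipid phosphatase, gave 5.50 ± 0.14 and Rab7b, a GTPase of late endosomes, 5.28 ± 0.07. Ifi205, an interferon-inducible protein of the HIN-200 family, read 12.64, 12.64, 12.69 and 12.89 in CD24+ cells, against 7.36, 7.72, 7.40 and 7.31 in CD172a+ cells. Cd36, a scavenger receptor for lipids and dying cells, read 11.10, 11.22, 10.85 and 10.99 in CD24+ cells, against 5.64, 6.58, 6.64 and 6.79 in CD172a+ cells, where KO mouse 1 was lowest. Gcsam, a signalling adaptor known from germinal centre B cells, gave 4.19 ± 0.06, Hepacam2, an adhesion molecule, 3.93 ± 0.07, and Gpr33, an orphan receptor, 3.70 ± 0.14. Cadm1, an adhesion molecule that binds Crtam on T cells, gave 3.78 ± 0.07. Cd8a, which marks splenic cDC1 as a homodimer of its product, gave 4.06 ± 0.08. Itgae, the CD103 integrin chain, differed among the CD24+ arrays, at 11.02, 11.62, 10.23 and 10.26, and stood in all of them above the CD172a+ arrays at 6.91, 6.50, 6.44 and 6.55. The 2 KO arrays were the higher ones, and the genotype part of this gap did not pass the test (KO minus WT of the subset difference 0.86 ± 0.28, adjusted p = 0.939).

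The 20 genes with the highest differences held 13 members of the cDC1 list, Irf8 and 6 genes of no list. Gpr141b, an orphan G protein-coupled receptor, stood at the head with 12.41, 12.22, 12.08 and 12.07 in CD24+ cells, against 6.14, 6.34, 5.97 and 6.37 in CD172a+ cells, a difference of 5.99 ± 0.09. Its paralogue Gpr141 went the other way, with 7.68, 7.19, 7.61 and 7.90 in CD24+ cells, against 10.14, 9.97, 9.67 and 9.43 in CD172a+ cells (-2.21 ± 0.16, adjusted p = 6.35e-06). The 2 genes were read by different probe sets, whose levels are not set against each other here. P3h2, a collagen prolyl hydroxylase, gave 5.31 ± 0.09, P2ry14, a receptor for UDP-sugars, 4.96 ± 0.14, and Pdia5, a disulfide isomerase of the endoplasmic reticulum, 4.57 ± 0.07. Mab21l3 gave 4.39 ± 0.06 and Serpinb8, a protease inhibitor, 3.87 ± 0.07. The 20 genes were taken among called genes whose CD24+ and CD172a+ arrays did not overlap, so the lack of overlap is part of the choice.

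Genes known from cDC2 were mostly lower in the CD24+ cells. Of 19 tested, 16 were lower and 2 higher (94.7% called, beside 33.0% of all genes), with a median difference of -1.99. Itgam, the CD11b integrin chain, read 7.31, 7.25, 7.33 and 7.61 in CD24+ cells, against 10.74, 10.45, 10.71 and 10.64 in CD172a+ cells. Cd4, carried by a part of splenic cDC2, read 7.97, 8.01, 7.73 and 7.60 in CD24+ cells, against 10.29, 10.14, 10.35 and 10.34 in CD172a+ cells, and neither gene had overlapping arrays. S100a4, a calcium-binding protein, gave -2.50 ± 0.13, and Dtx1, an E3 ligase that is a target of Notch, -2.48 ± 0.08. Esam, an adhesion molecule of Notch2-dependent cDC2, was lower by a smaller amount (-1.46 ± 0.06, adjusted p = 1.11e-07). Cd209a, a lectin receptor, read 9.82, 8.60, 9.98 and 9.85 in CD24+ cells, against 11.69, 11.79, 11.88 and 11.75 in CD172a+ cells, with the CD24+ array of KO mouse 2 lowest. The members that were higher in CD24+ cells were Clec12a, an inhibitory lectin receptor (1.92 ± 0.08), and Ccr2, a chemokine receptor of monocytes and some DCs (1.29 ± 0.11). Lyz2, lysozyme, did not pass (0.22 ± 0.09, adjusted p = 0.107), though it did without WT mouse 1 (0.0479), without the block (0.0371) and in KO mice alone (0.0178).

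Among the 20 genes with the lowest differences, 10 belong to no list. Mmp12, the macrophage elastase, read 7.14, 7.32, 7.0 and 6.96 in CD24+ cells, against 12.42, 12.04, 12.26 and 12.14 in CD172a+ cells. Dscam, an immunoglobulin-family adhesion molecule known from neurons, read 6.17, 6.17, 6.18 and 6.17 in CD24+ cells, against 11, 10.85, 10.79 and 10.90 in CD172a+ cells. Bmp2, a growth factor of the TGF-beta family, gave -4.24 ± 0.08, Cd72, an inhibitory receptor known from B cells, -4.19 ± 0.09, and Sh2d1b1, an adaptor of SLAM receptors, -4.09 ± 0.07. Tgm2, a transglutaminase, gave -3.77 ± 0.08, St8sia6, a sialyltransferase, -3.50 ± 0.06, and Cd300lf, an inhibitory receptor of myeloid cells, -3.48 ± 0.06. Tmem273 (-3.82 ± 0.08) and Gm9733 (-3.82 ± 0.07) completed the set beside members of the lists. That all 4 CD24+ arrays lay below all 4 CD172a+ arrays was a condition for a place among these 20 genes.

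The factors that set DC lineage differed in both directions. Of 28 tested, 6 were higher and 13 lower in CD24+ cells (67.9% called, beside 33.0% of all genes), with a median difference of -0.23. Irf8 read 13.16, 13.14, 13.05 and 13.12 in CD24+ cells, against 8.89, 9.36, 9.24 and 9.38 in CD172a+ cells (3.90 ± 0.09, 15-fold higher). Irf4 read 8.62, 7.90, 8.20 and 8.66 in CD24+ cells, against 11.20, 11.07, 11.04 and 11.13 in CD172a+ cells (-2.76 ± 0.10). Zeb2, a repressor that favours the cDC2 lineage, read 7.46, 6.75, 7.27 and 7.16 in CD24+ cells, against 9.78, 9.79, 9.78 and 9.68 in CD172a+ cells, and neither factor had overlapping arrays. Id2, an inhibitor of E proteins needed for cDC1, was higher (1.34 ± 0.07), and so, by less, was Batf3, the partner of Irf8, which read 11.89, 11.98, 12.08 and 11.92 in CD24+ cells, against 11.47, 11.68, 11.70 and 11.80 in CD172a+ cells (0.31 ± 0.06, adjusted p = 0.00515). Tbx21, the factor T-bet known from a subset of cDC2, gave -1.76 ± 0.07, and Prdm1, the repressor Blimp-1, -1.40 ± 0.07. Klf4, needed for a subset of cDC2, gave -1.16 ± 0.06. Zbtb46, of which each mouse had 1 allele replaced by GFP, did not pass (0.17 ± 0.06, adjusted p = 0.0514), though it did without WT mouse 2 (0.0405), without the block (0.0285), under quantile normalization (0.0441) and with a filter on dim genes (0.0409).

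Notch signalling guides splenic cDC2, and its genes split between the subsets. Of 14 tested, 5 were higher and 7 lower in CD24+ cells (85.7% called, beside 33.0% of all genes). The receptor Notch4 read 9.88, 10.24, 9.89 and 10.03 in CD24+ cells, against 8.13, 7.87, 7.85 and 8.05 in CD172a+ cells (2.03 ± 0.09), and Maml2, a coactivator of Notch, gave 1.46 ± 0.06. Notch2, the receptor that cDC2 depend on, read 11.68 ± 0.10 in CD24+ cells and 11.70 ± 0.08 in CD172a+ cells (mean ± SD, n = 4), a difference of -0.02 ± 0.07 that did not pass (adjusted p = 0.827). Rbpj, the DNA-binding mediator of Notch, was higher (0.47 ± 0.07), and the ligand Jag1 lower (-0.99 ± 0.06).

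Receptors for myeloid growth factors included a pair that was lower in CD24+ cells. Of 12 tested, 2 were higher and 5 lower in CD24+ cells (58.3% called, beside 33.0% of all genes). Flt3, the receptor for the main DC growth factor, was higher (0.42 ± 0.06), and Csf2rb, the shared chain of the GM-CSF receptor, did not pass (0.03 ± 0.07). Csf1r, the M-CSF receptor, read 8.47, 8.14, 8.45 and 8.52 in CD24+ cells, against 10.17, 10.25, 10.50 and 10.60 in CD172a+ cells. Csf3r, the G-CSF receptor, read 7.03, 7.16, 7.02 and 7.58 in CD24+ cells, against 9.77, 9.61, 9.85 and 9.93 in CD172a+ cells. Every CD24+ array was lower than every CD172a+ array for both, with differences of -1.99 ± 0.08 for Csf1r and -2.59 ± 0.09 for Csf3r.

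Sensors of nucleic acid divided the subsets by receptor. Among 16 tested Toll-like receptors and adaptors, 5 were higher and 7 lower in CD24+ cells (75.0% called, beside 33.0% of all genes). Tlr3, the receptor for double-stranded RNA, read 12.39, 12.25, 12.14 and 12.18 in CD24+ cells, against 8.09, 7.88, 7.81 and 7.94 in CD172a+ cells, and Tlr12, a receptor for the profilin of Toxoplasma, gave 2.98 ± 0.09. Tlr7, the receptor for single-stranded RNA, read 6.01, 5.35, 5.88 and 6.10 in CD24+ cells, against 11.54, 11.29, 11.07 and 11.36 in CD172a+ cells, a difference of -5.48 ± 0.11. The RNA receptors thus differed in opposite directions, Tlr3 19.9-fold higher and Tlr7 44.7-fold lower in CD24+ cells. Tlr1, which pairs with Tlr2 to bind lipopeptides, gave -3.11 ± 0.09, Tlr8 -1.81 ± 0.11, and Tlr6 -0.85 ± 0.09.

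Most cytosolic sensors were lower in CD24+ cells. Of 18 tested sensors and inflammasome genes, 14 were lower and 0 higher (77.8% called, beside 33.0% of all genes). Their median difference was -0.52. Ddx58, which encodes the RNA sensor RIG-I, read 6.56, 6.80, 6.61 and 6.84 in CD24+ cells, against 10.81, 10.88, 10.67 and 10.47 in CD172a+ cells (-4.0 ± 0.09). Its relative Ifih1, which encodes MDA5, was lower by less (-1.29 ± 0.07), as were the peptidoglycan sensor Nod1 (-1.79 ± 0.06) and Nlrc4, which forms an inflammasome in response to flagellin (-2.28 ± 0.07). Nlrp3 gave -1.28 ± 0.07 and Casp1, the inflammasome protease, -1.15 ± 0.09.

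Most genes that type I interferon induces were also lower in the CD24+ cells of these homeostatic spleens. Of 18 tested, 13 were lower and 3 higher (88.9% called, beside 33.0% of all genes), with a median difference of -1.18. No count of this list moved by over 1.5 times in any alternative tried. Rtp4 read 7.05, 7.14, 6.91 and 6.77 in CD24+ cells, against 11.80, 11.94, 11.50 and 11.16 in CD172a+ cells. Oas2, a sensor of double-stranded RNA, gave -3.46 ± 0.13, Ifit3 -3.01 ± 0.17, Oasl2 -2.86 ± 0.06 and Ifit1, which binds viral RNA caps, -2.82 ± 0.07. Within the list, Rsad2, the antiviral enzyme viperin, gave -2.22 ± 0.07, and Oas1a, an oligoadenylate synthetase, -1.64 ± 0.12. The members higher in CD24+ cells were Mx1 (1.14 ± 0.08), Bst2, the antiviral tetherin (0.57 ± 0.07, adjusted p = 0.000268 by limma), and Oasl1 (0.39 ± 0.08). The Oas and Ifit genes have close relatives in the genome, so signal shared between their probe sets was not tested. Irf7, the factor that amplifies the interferon response, read 11.29, 11.28, 11.13 and 11.06 in CD24+ cells and 11.24, 11.37, 10.95 and 10.96 in CD172a+ cells (0.06 ± 0.06, adjusted p = 0.537), and the arrays of the subsets overlapped for it.

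**Figure D3:**
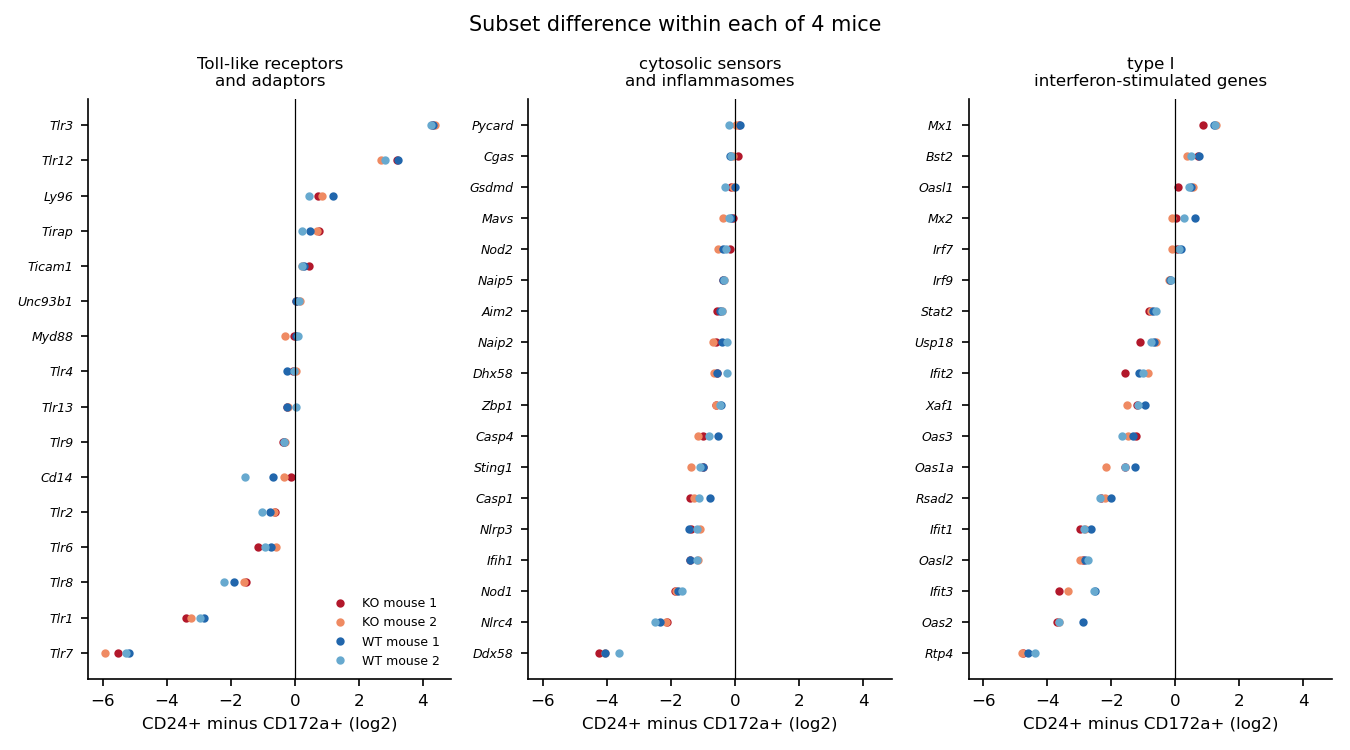
Difference CD24+ minus CD172a+ (log2, horizontal axis) within each of the 4 mice (points, KO in red and orange, WT in blue) for the tested members of 3 gene lists. The 4 points of Tlr3 lie at 4.24 to 4.38 and those of Tlr7 at -5.94 to -5.20, while most cytosolic sensors and interferon-stimulated genes lie below 0.

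Interferon-stimulated genes carry a response element whose core is a pair of GAAA boxes, read by interferon response factors. Promoters are shown because 13 of the 18 members were lower in CD24+ cells. RefSeq windows of 300 bases on GRCm38.p6, from 250 bases before to 50 after a gene's start, were searched on both strands for GAAA, any 2 bases and GAAA. The core was found for 7 of the 13 list members with a window, beside 3.89% of the 15614 tested genes with a window and 3.44% of all 32851 windows. Of genes at least 2-fold lower in CD24+ cells it was found for 10.3% (36 of 348), and of genes at least 2-fold higher for 3.3% (10 of 303). Shares for 3 other motifs, searched in the same way, are given in the order lower, higher and all tested genes: 4.02%, 2.64% and 2.98% for the ETS-IRF element (GGAA, any 2 bases and GAAA), 12.4%, 9.24% and 8.08% for the AP-1 element TGANTCA, and 11.8%, 6.93% and 8.99% for the STAT element TTCNNNGAA. These shares are descriptions with no test, and a match is not a site.

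Windows of 6 genes that hold the core are printed 5′ to 3′ on the gene's strand, with each match in capitals. Ifit1 (chr19:34640639-34640938, plus strand), Ifit3 (chr19:34583279-34583578, plus strand), Oas1a (chr5:120907476-120907775, minus strand) and Rsad2 (chr12:26456403-26456702, minus strand) were lower in CD24+ cells. Bst2 (chr8:71537423-71537722, minus strand) and Ifi205 (chr1:174031706-174032005, minus strand) were higher and hold the same core. Rsad2 has 1 match and the other 5 windows 2 matches each, which overlap each other in Oas1a and Bst2, and a match in Bst2 overlaps the STAT element.
Ifit1: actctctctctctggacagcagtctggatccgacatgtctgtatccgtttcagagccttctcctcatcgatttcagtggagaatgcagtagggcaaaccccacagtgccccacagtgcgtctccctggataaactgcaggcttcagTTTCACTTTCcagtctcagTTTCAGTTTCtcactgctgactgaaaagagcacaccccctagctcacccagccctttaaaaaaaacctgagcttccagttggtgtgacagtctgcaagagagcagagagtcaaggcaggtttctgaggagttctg
Ifit3: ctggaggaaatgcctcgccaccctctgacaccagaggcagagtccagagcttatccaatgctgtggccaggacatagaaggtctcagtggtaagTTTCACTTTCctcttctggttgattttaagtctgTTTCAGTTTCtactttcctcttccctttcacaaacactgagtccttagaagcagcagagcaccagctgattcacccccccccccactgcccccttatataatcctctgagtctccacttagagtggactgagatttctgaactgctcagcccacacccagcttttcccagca
Oas1a: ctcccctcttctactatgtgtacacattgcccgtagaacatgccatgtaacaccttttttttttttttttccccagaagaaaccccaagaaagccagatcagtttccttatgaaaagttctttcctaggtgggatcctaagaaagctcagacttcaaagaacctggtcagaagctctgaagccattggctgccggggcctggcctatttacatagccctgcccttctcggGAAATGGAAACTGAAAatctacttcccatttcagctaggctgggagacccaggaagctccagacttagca
Rsad2: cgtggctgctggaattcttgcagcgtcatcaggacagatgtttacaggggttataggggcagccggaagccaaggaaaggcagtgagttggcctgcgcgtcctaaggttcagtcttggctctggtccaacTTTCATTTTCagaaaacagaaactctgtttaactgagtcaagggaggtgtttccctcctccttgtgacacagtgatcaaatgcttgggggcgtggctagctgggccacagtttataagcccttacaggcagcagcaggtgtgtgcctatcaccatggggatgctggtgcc
Bst2: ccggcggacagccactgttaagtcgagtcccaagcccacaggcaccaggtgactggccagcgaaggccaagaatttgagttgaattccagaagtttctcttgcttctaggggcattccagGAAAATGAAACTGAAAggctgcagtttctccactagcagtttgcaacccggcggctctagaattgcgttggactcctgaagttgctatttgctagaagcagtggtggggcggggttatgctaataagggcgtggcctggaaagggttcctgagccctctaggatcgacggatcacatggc
Ifi205: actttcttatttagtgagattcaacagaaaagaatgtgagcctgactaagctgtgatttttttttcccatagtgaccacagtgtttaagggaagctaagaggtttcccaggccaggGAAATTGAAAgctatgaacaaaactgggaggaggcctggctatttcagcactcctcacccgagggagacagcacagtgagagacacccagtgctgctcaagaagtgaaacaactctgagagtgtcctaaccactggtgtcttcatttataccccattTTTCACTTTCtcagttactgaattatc

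Lectin receptors held some of the widest subset differences. Of 22 tested, 14 were lower and 6 higher in CD24+ cells (90.9% called, beside 33.0% of all genes). The Clec4a relatives of Clec4a4 on chromosome 6 all were lower: Clec4a1 read 6.38, 6.20, 6.28 and 6.57 in CD24+ cells, against 10.40, 10.38, 10.42 and 10.51 in CD172a+ cells, Clec4a2 gave -3.66 ± 0.06 and Clec4a3 -3.14 ± 0.13. These genes are close copies of each other, and signal shared between their probe sets was not tested. Clec9a stood opposite them, as did Cd207, the langerin gene (2.42 ± 0.16), Ly75, the endocytic receptor DEC-205 (1.92 ± 0.07), and Cd209d (1.81 ± 0.19).

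Receptors for antibody and the SIRP ligand were mainly lower in CD24+ cells. Of 10 tested Fc receptors, 6 were lower and 1 higher (70.0% called, beside 33.0% of all genes). Fcer1g, the signalling chain shared by several of them, read 11.11, 10.75, 11.47 and 11.42 in CD24+ cells, against 13.05, 13.04, 13.04 and 13.05 in CD172a+ cells, and Fcgr3 and Fcgr4, activating receptors for IgG, gave -1.38 ± 0.09 and -1.50 ± 0.10, and Fcrl1, a receptor-like molecule known from B cells, -1.59 ± 0.08. Fcgr2b, the inhibitory receptor, was the member higher in CD24+ cells (0.33 ± 0.08, adjusted p = 0.0131), and its call was lost without KO mouse 1 or WT mouse 1 and in KO mice alone. Cd47, the ligand of CD172a, was lower (-0.39 ± 0.06).

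Integrin chains were split. Of 17 tested, 6 were higher and 7 lower in CD24+ cells (76.5% called, beside 33.0% of all genes). Itgae and Itgam marked the ends, and Itga1, a collagen receptor chain, was higher (1.97 ± 0.09), while Itgb3 was lower (-1.44 ± 0.06). Itgax, the CD11c chain used to define DCs, read 12.50, 12.37, 12.21 and 12.54 in CD24+ cells, against 13.06, 12.91, 12.93 and 12.91 in CD172a+ cells (-0.55 ± 0.07).

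Some chemokine receptors other than Xcr1 also differed between the subsets. Of 21 tested, Xcr1 included, 6 were higher and 7 lower in CD24+ cells (61.9% called, beside 33.0% of all genes). Cxcr3, the receptor for Cxcl9 and Cxcl10, read 11.57, 11.74, 11.49 and 11.45 in CD24+ cells, against 8.32, 8.30, 8.28 and 8.43 in CD172a+ cells. Ccr9, a gut-homing receptor that is also a marker of plasmacytoid DCs, gave 2.35 ± 0.11. Siglech, which defines plasmacytoid DCs, read 8.31, 7.51, 7.60 and 7.76 in CD24+ cells, against 7.35, 7.23, 7.31 and 7.32 in CD172a+ cells, with KO mouse 1 the highest. The list of plasmacytoid DC markers also held members lower in CD24+ cells, and its differences reached from -1.07 to 2.35. Gpr183, the oxysterol receptor that positions cDC2 in the spleen, was lower (-1.97 ± 0.09), as was Ccr6 (-1.58 ± 0.09). Ccr7, the receptor for migration to T cell zones, was lower by less (-0.26 ± 0.07, adjusted p = 0.0224), a call that was lost without either KO mouse or WT mouse 2 (adjusted p of 0.0560 to 0.108).

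Among chemokines, 9 of 21 tested were higher and 6 lower in CD24+ cells (71.4% called, beside 33.0% of all genes). Cxcl9, a ligand of Cxcr3, read 12.23, 12.30, 12.39 and 12.21 in CD24+ cells, against 8.62, 9.21, 9.06 and 9.20 in CD172a+ cells (3.26 ± 0.09). Ccl22, which attracts regulatory T cells, gave 1.38 ± 0.08, and Cxcl16, the ligand of Cxcr6, 1.03 ± 0.06. Ccl3, a chemokine for inflammatory cells, was lower, with 11.97, 12.08, 11.97 and 12.16 in CD24+ cells, against 13.34, 13.36, 13.46 and 13.32 in CD172a+ cells.

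Of 23 cytokine genes tested, 8 were higher and 5 lower (56.5% called, beside 33.0% of all genes). Il12b, the p40 chain shared by interleukins 12 and 23, read 12.21, 12.26, 11.93 and 12.04 in CD24+ cells, against 9.05, 9.27, 9.39 and 9.62 in CD172a+ cells (2.78 ± 0.12). Il15, which sustains CD8 T and NK cells, gave 1.65 ± 0.09. Il6 was higher by 0.59 ± 0.14 at a low level (means 6.48 in CD24+ and 5.90 in CD172a+ cells), and Il1b was lower (-0.56 ± 0.06) at a high one (means 12.29 in CD24+ and 12.85 in CD172a+ cells). Flt3l, the growth factor of DCs, was lower (-0.85 ± 0.06).

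Ligands of T cell costimulation and inhibition differed in both directions. Of 22 tested, 5 were higher and 10 lower in CD24+ cells (68.2% called, beside 33.0% of all genes). Pdcd1lg2, which encodes PD-L2, read 6.88, 7.21, 7.13 and 6.70 in CD24+ cells, against 9.46, 9.06, 9.37 and 9.30 in CD172a+ cells, and Cd274, which encodes PD-L1, gave -1.41 ± 0.08. Btla, an inhibitory receptor, read 11.51, 11.43, 11.27 and 11.43 in CD24+ cells, against 9.34, 9.31, 9.37 and 9.21 in CD172a+ cells. Cd86 was higher by 0.40 ± 0.07 and Cd80 lower (-0.48 ± 0.06), while Cd40 gave -0.17 ± 0.08 (adjusted p = 0.150, and 0.0417 without WT mouse 1).

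Genes of class I presentation were mostly higher in CD24+ cells, by small amounts. Of 18 tested, 12 were higher and 2 lower (77.8% called, beside 33.0% of all genes), with a median difference of 0.39. Without WT mouse 1, 1 member was lower. Tap1 and Tap2, the peptide transporter, gave 0.65 ± 0.06 and 0.77 ± 0.06, Nlrc5, the class I transactivator, 0.61 ± 0.11, and Pdia3, a chaperone of class I folding, 0.63 ± 0.08. Cd1d1, which presents lipids, read 9.44, 9.18, 9.45 and 9.04 in CD24+ cells, against 8.46, 8.22, 8.13 and 8.08 in CD172a+ cells. B2m, the light chain of class I, gave -0.13 ± 0.06 (adjusted p = 0.120). Mr1, which presents vitamin metabolites, was lower (-0.61 ± 0.14), a call lost without WT mouse 1 (adjusted p = 0.0516). Its difference was -0.97 in WT mice alone and -0.24 in KO mice alone, where it did not pass (0.182).

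Ciita encodes the transactivator that drives class II genes, and for 2 of these the subset difference depended on the Ciita genotype. Of 18 tested members, 2 were higher and 8 lower in CD24+ cells (55.6% called, beside 33.0% of all genes). The number higher moved to 1 without either KO mouse, 5 without WT mouse 1 and 4 without WT mouse 2. H2-Aa, a class II alpha chain, read 13.20, 13.28, 13.72 and 13.78 in CD24+ cells, against 11.11, 11.36, 13.86 and 13.82 in CD172a+ cells. The KO arrays of CD172a+ cells were lowest and the WT arrays of both subsets lay together. The mean difference over the 4 mice, 0.96 ± 0.35, did not pass (adjusted p = 0.0680, and 0.0242 and 0.0229 without WT mouse 1 and WT mouse 2), while its dependence on genotype did, and KO minus WT of the subset difference was 2.09 ± 0.12 (adjusted p = 0.00307). H2-Eb1, a class II beta chain, read 11.86, 12.45, 14.05 and 14.05 in CD24+ cells, against 10.68, 11.16, 14.08 and 14.05 in CD172a+ cells, and KO minus WT of the subset difference was 1.25 ± 0.11 (adjusted p = 0.0486). The mean difference of H2-Eb1, 0.61 ± 0.22, likewise did not pass (adjusted p = 0.0570) but did without WT mouse 1 or WT mouse 2 (0.0233 and 0.0196). The genotype call of H2-Eb1 was lost when KO mouse 2 or either WT mouse was left out (adjusted p of 0.0847 to 0.236) and when arrays were taken as independent (0.796). In WT mice alone the subset difference of H2-Aa was -0.09 and that of H2-Eb1 -0.01. The WT readings of both genes lay near the highest signals of the spleen arrays (up to 14.55), where a difference may be understated. The part of this limit in the genotype calls was not tested.

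Over all 19938 genes, these 2 (0.0100%) were the ones whose subset difference depended on genotype by limma at an adjusted p under 0.05, beside 984 at an unadjusted p under 0.05, with 2 mice per genotype. H2-Ab1, a class II beta chain, read 11.98, 12.18, 13.99 and 13.99 in CD24+ cells, against 11.26, 11.70, 14.07 and 13.97 in CD172a+ cells, lower in both subsets of the KO mice. Its mean subset difference did not pass (0.29 ± 0.12, adjusted p = 0.105 by limma), though it did without the block (0.0446). In KO mice alone the difference was 0.60 and passed (adjusted p = 0.00191 by limma), and in WT mice alone it was -0.026. KO minus WT of its subset difference, 0.625 ± 0.128, did not pass (adjusted p = 0.691 by limma). H2-Eb2 was lower in CD24+ cells of each mouse, with 7.37, 6.94, 8.73 and 8.76, against 8.03, 8.51, 11.03 and 10.88 in CD172a+ cells (-1.66 ± 0.22). The peptide exchange subunits differed in direction, H2-DMa at 0.35 ± 0.08 and H2-Oa, which restrains exchange in concert with H2-Ob, at -0.68 ± 0.12. The call of H2-DMa was lost without KO mouse 1 (adjusted p = 0.0568) or KO mouse 2 (0.0571), with all 16 arrays in the fit (0.503) and in WT mice alone (difference 0.15, 0.365). Cd74, the invariant chain, gave 0.05 ± 0.06 (adjusted p = 0.622) and Ciita itself -0.20 ± 0.07 (adjusted p = 0.0692). The Ciita probe set read 11.18, 10.90, 10.97 and 11.05 in CD24+ cells and 11.28, 10.93, 11.40 and 11.27 in CD172a+ cells and did not separate KO from WT. Which stretch of Ciita the allele lacks is not stated in the labels, so this reading does not check the genotype labels. Among proteases of class II processing, Ctsl (-1.08 ± 0.08) and Lgmn (-0.90 ± 0.07) were lower.

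**Figure D4:**
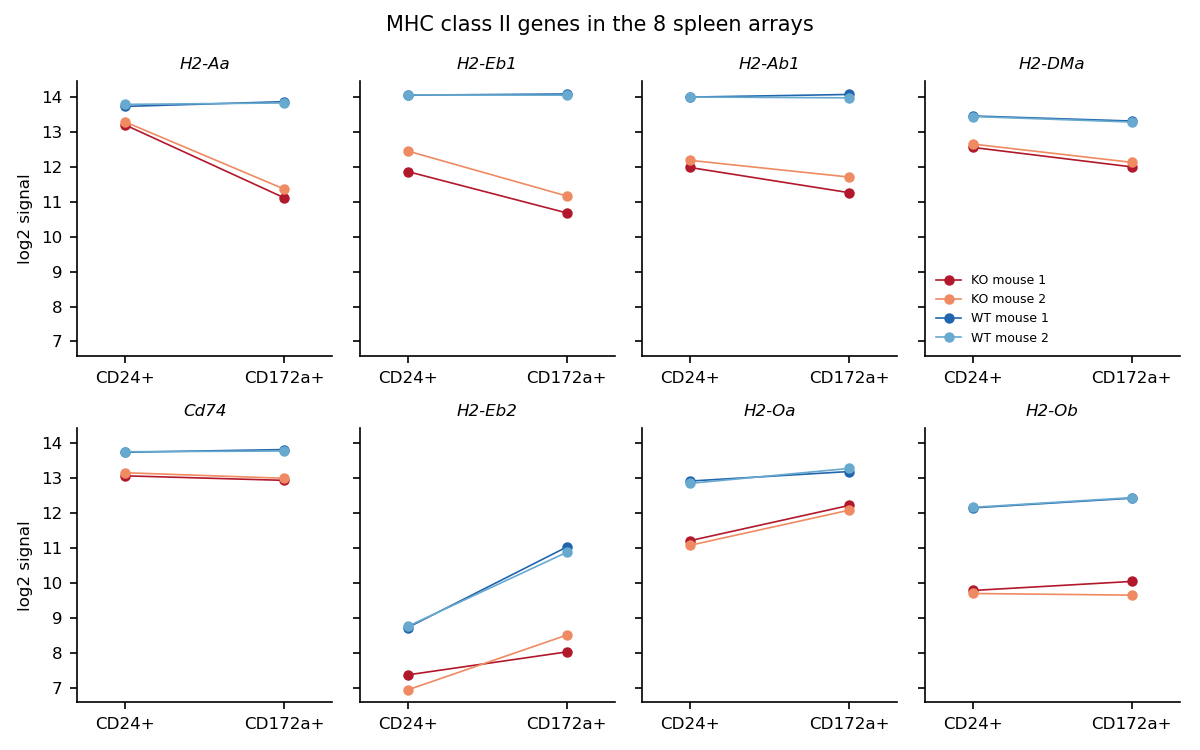
Log2 signal (vertical axis) of 8 class II genes in the CD24+ and CD172a+ arrays of each mouse (points, joined within a mouse, KO in red and orange, WT in blue). For H2-Aa the KO points lie at 13.20 and 13.28 in CD24+ cells, against 11.11 and 11.36 in CD172a+ cells, while the WT lines are nearly flat.

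Genes of the phagosome and its oxidase differed in both directions. Of 15 tested, 3 were higher, 5 lower and 7 not called (53.3% called, beside 33.0% of all genes), with a median difference of -0.05. Cybb, the catalytic subunit of the NADPH oxidase, read 9.65, 8.78, 9.48 and 9.70 in CD24+ cells, against 12.25, 12.05, 12.11 and 11.99 in CD172a+ cells, and Hvcn1, the proton channel that serves the oxidase, gave -2.35 ± 0.06. Rab43, a GTPase that takes part in cross-presentation, was higher (0.86 ± 0.06). Rac2, a GTPase that activates the oxidase, was lower (-0.73 ± 0.05).

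Receptors for dead cells and complement genes gave 4 higher and 11 lower members of 22 tested (68.2% called, beside 33.0% of all genes). Beside Cd36, the lipoprotein receptor Scarb1 was higher (0.87 ± 0.06). Axl and Mertk, receptor kinases that bind dying cells, were lower (-1.44 ± 0.09 and -0.49 ± 0.09). C1qa, a chain of complement C1q, read 7.24, 7.87, 7.51 and 8.73 in CD24+ cells, against 8.70, 9.83, 9.25 and 10.56 in CD172a+ cells, and C1qb gave -1.49 ± 0.10. These chains are also markers of red pulp macrophages, of whose 13 tested markers 11 were lower and 1 higher in CD24+ cells (92.3% called). The mean level over these markers was 7.30 to 7.80 in the CD24+ arrays and 8.05 to 9.05 in the CD172a+ arrays. Spic, the factor that defines these macrophages, read 8.09, 7.74, 8.04 and 8.24 in CD24+ cells, against 8.45, 8.82, 8.51 and 9.05 in CD172a+ cells, and Vcam1 gave 0.09 ± 0.14 (adjusted p = 0.704). Adgre1, an adhesion receptor of macrophages, read 6.72, 6.81, 6.83 and 6.92 in CD24+ cells, against 11.05, 10.85, 10.99 and 10.95 in CD172a+ cells. The part of such cells in the differences was not tested.

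Lipid mediators set the subsets apart through single genes. Ptgs2, the inducible cyclooxygenase, read 8.79, 8.49, 8.64 and 9.22 in CD24+ cells, against 13, 12.86, 13.01 and 13.07 in CD172a+ cells (18.4-fold lower). Ptger3, a receptor for prostaglandin E, gave -2.95 ± 0.07, and Ptger2, another, was higher (1.12 ± 0.08). Of 20 tested, 5 were higher and 8 lower (65.0% called, beside 33.0% of all genes). Hpgds, a prostaglandin D synthase, gave -1.65 ± 0.09 and Lta4h, an enzyme of leukotriene synthesis, -1.45 ± 0.08.

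Most of the glycolytic enzymes listed were higher and the glucose transporters lower in CD24+ cells. Of 16 tested, 9 were higher and 5 lower (87.5% called, beside 33.0% of all genes). The hexokinase Hk3 gave 2.26 ± 0.13, the phosphofructokinase Pfkp 1.64 ± 0.06 and the mutase Pgam1 0.98 ± 0.06, while Hk2 was lower (-0.58 ± 0.06). Slc2a3, a glucose transporter, read 9.06, 8.85, 8.98 and 9.14 in CD24+ cells, against 11.94, 11.46, 11.64 and 11.69 in CD172a+ cells, and Slc2a6 gave -1.22 ± 0.09. In the sterol and fatty acid list 4 of 16 tested were higher and 3 lower (43.8% called, beside 33.0% of all genes), and Elovl6, a fatty acid elongase, gave 1.19 ± 0.06. Without KO mouse 2, 1 of this list was lower.

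Of the 13 apoptosis regulators tested, 6 were higher and 1 lower in CD24+ cells (53.8% called, beside 33.0% of all genes). Bid, which carries death signals to mitochondria, was higher (0.72 ± 0.06) and Pmaip1, which encodes Noxa, lower (-0.78 ± 0.10). In the cell cycle list 3 of 20 tested were higher and 4 lower, 35.0% called beside 33.0% of all genes, and these counts moved with each mouse left out, to 0 higher and 7 lower without KO mouse 1, 2 lower without KO mouse 2 or WT mouse 2, and 1 higher without WT mouse 1. Immediate early genes, which cells induce on stimulation, read high in all arrays, with Fos at 12.25, 12.01, 12.03 and 12.21 in CD24+ cells and 12.33, 12.06, 12.21 and 12.37 in CD172a+ cells. Of 17 tested, 10 were lower and 0 higher in CD24+ cells (58.8% called), with a median difference of -0.27.

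Markers of other cells that a sort can hold moved with the subset in several lists. Of 15 neutrophil and precursor markers tested, 8 were higher and 2 lower in CD24+ cells (66.7% called, beside 33.0% of all genes). Differences over this list reached from -2.32 to 2.13, and the arrays of the subsets did not overlap for 1 member. Without the block for mouse, 4 were higher and 2 lower. The mean level over the list was 6.31 to 8.08 in the CD24+ arrays and 6.45 to 6.70 in the CD172a+ arrays. S100a8 read 7.91, 10.07, 8.06 and 6.21 in CD24+ cells, against 5.92, 6.53, 5.98 and 5.99 in CD172a+ cells. Ngp, a granule protein, read 7.63, 10.51, 8.68 and 5.91 in CD24+ cells, against 5.84, 6.64, 5.96 and 5.75 in CD172a+ cells. The CD24+ array of KO mouse 2 was highest for both genes and that of WT mouse 2 lay near the CD172a+ arrays. Without KO mouse 2, 6 of these markers were higher and 1 lower, without KO mouse 1 5 were higher, and without WT mouse 1 or WT mouse 2 1 was lower. The cDC1 list had 23 higher and the cDC2 list 16 lower members without that mouse.

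Of 11 monocyte markers, 3 were higher and 6 lower (81.8% called, beside 33.0% of all genes). Mean levels of these markers were 8.33 to 8.49 in the CD24+ and 8.93 to 9.20 in the CD172a+ arrays. Treml4, a receptor of monocytes and of splenic cDC1, read 12.55, 12.44, 12.54 and 12.53 in CD24+ cells, against 10.66, 10.91, 11.24 and 11.19 in CD172a+ cells, while Adgre4, an adhesion receptor, gave -3.56 ± 0.07 and Ace, the angiotensin-converting enzyme, -2.15 ± 0.11. The B cell list had 1 higher and 5 lower of 11 tested (54.5% called, beside 33.0% of all genes). Its mean levels were 6.84 to 7.02 in the CD24+ and 7.28 to 7.49 in the CD172a+ arrays. Cd22, an inhibitory receptor of B cells, gave -2.45 ± 0.11, and Cd79b, Blk, Cr2 and Fcer2a were lower too (-0.86 ± 0.06, -1.13 ± 0.08, -0.97 ± 0.12 and -0.74 ± 0.10), while Ms4a1 was higher (0.70 ± 0.07). Cd79a, Pax5 and Ebf1, which define B cells, did not pass and had means of 5.05, 6.89 and 5.40 in CD24+ cells and 5.0, 6.86 and 5.40 in CD172a+ cells. The T cell list had 5 higher and 1 lower of 10 (60.0% called), with Cd3e at 7.85 in CD24+ and 7.55 in CD172a+ cells and Cd5 lower (-1.0 ± 0.06). The number of T cell markers higher was 0 without KO mouse 2 or WT mouse 1 and 3 without KO mouse 1. In the NK cell list 5 of 10 were higher and 0 lower (50.0% called), and 1 was lower without WT mouse 1. Mean levels of this list were 6.80 to 6.98 in the CD24+ and 6.53 to 6.62 in the CD172a+ arrays. In the plasmacytoid DC list 5 of 9 were higher and 2 lower (77.8% called). Mean levels there were 8.15 to 8.30 in the CD24+ and 7.79 to 7.88 in the CD172a+ arrays. Of 7 erythroid markers 2 were higher and 2 lower (57.1% called, and 1 higher without KO mouse 2). Of 6 platelet markers 0 were higher and 0 lower. The part of other cells in the subset differences was not tested.

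The subset differences of spleen were set against those of the activated cultures, from 4 other mice. The difference between them, spleen minus culture, passed an adjusted p under 0.05 by limma for 5942 genes (29.8%), of which 4156 were among the 6584 genes that differed in spleen. The median log2 signal per array was 6.85 to 6.92 in culture, beside 7.29 to 7.32 in spleen. Levels of a gene may therefore not share a scale between the tissues, and the test used differences taken within a mouse. Each tissue carries its own treatment here, so tissue, culture and activation cannot be told apart. The Y-linked and Xist readings given above also split by tissue, so sex cannot be told apart from tissue either. Xcr1 differed between the subsets by 5.41 in spleen and 3.93 in culture (spleen minus culture 1.48 ± 0.20, adjusted p = 0.000550), and Clec9a by 4.90 and 3.96 (0.95 ± 0.08). Irf8 differed by 3.90 in spleen and 0.04 in culture (3.87 ± 0.11, adjusted p = 8.56e-08). In culture Irf8 read 13.45, 13.58, 13.46 and 13.32 in CD24+ cells, against 13.37, 13.42, 13.48 and 13.39 in CD172a+ cells, and these arrays overlapped.

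Several of the widest spleen differences were much smaller in culture. Gpr141b gave 5.99 in spleen and 0.21 in culture (5.78 ± 0.12), Ifi205 5.27 and 0.63, Mmp12 -5.11 and -0.09, and Dscam -4.71 and -0.20. Clec4a4 kept its sign, with -5.86 in spleen and -1.07 in culture (-4.79 ± 0.12). Its CD24+ arrays in culture read 4.44, 4.34, 4.28 and 4.30, again a low signal. Rtp4 differed by -4.63 in spleen and -3.88 in culture (-0.75 ± 0.08). Lima1, an actin-binding protein, was higher in CD24+ cells of spleen (3.28) and read the other way in culture (-1.47), as did Gprc5c, an orphan receptor (2.84 and -1.56). Tespa1, a signalling adaptor known from T cells, and Hpgds were lower in spleen (-2.68 and -1.65) and had positive values in culture (2.14 and 2.87). Lyz2 did not pass in spleen, where it read 10.76, 10.73, 10.77 and 10.85 in CD24+ cells, against 10.20, 10.48, 10.81 and 10.75 in CD172a+ cells. In culture it read 11.58, 10.66, 11.45 and 11.12 in CD24+ cells, against 6.49, 6.42, 7.16 and 6.38 in CD172a+ cells, and spleen minus culture was -4.37 ± 0.19 (adjusted p = 6.03e-07). All cultured CD24+ arrays thus stood above the cultured CD172a+ arrays for lysozyme.

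**Figure D5:**
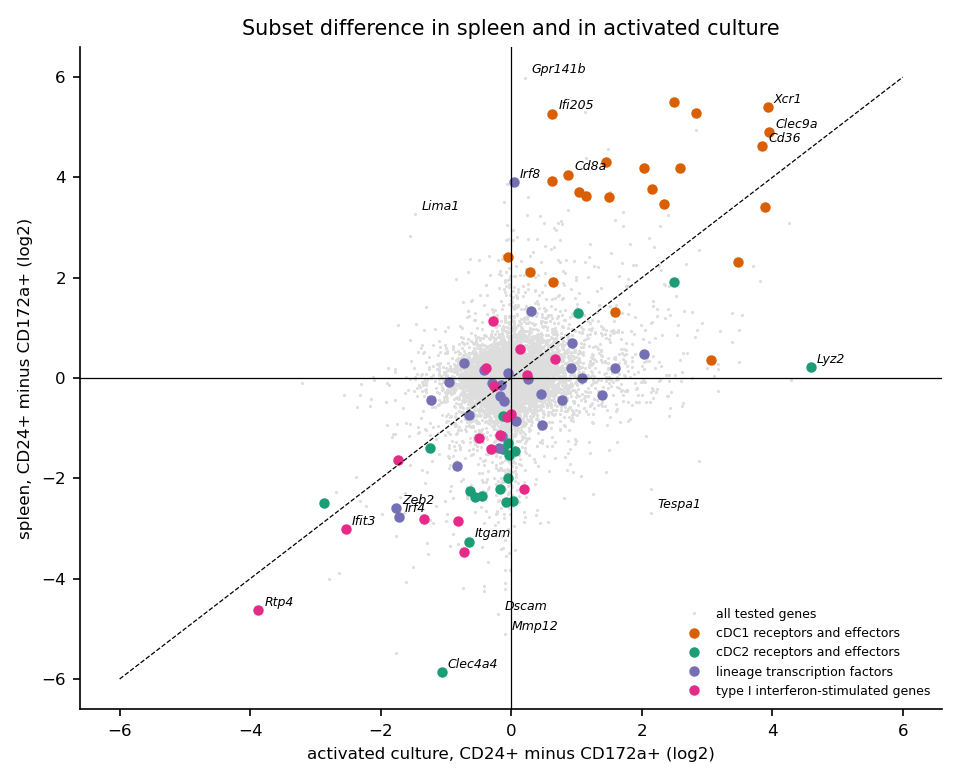
Difference CD24+ minus CD172a+ (log2) in spleen (vertical axis, mean of 4 mice) and in activated culture (horizontal axis, mean of 4 other mice) for all tested genes (grey) and the members of 4 lists (colours), with the line of equal values dashed. Xcr1 and Clec9a lie high on both axes, Irf8 at 3.90 in spleen and 0.04 in culture, and Lyz2 at 0.22 in spleen and 4.59 in culture.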

How the data were processed

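Per the labels' protocols, RNA of sorted DCs came from an EZNA MicroElute kit, was cleared of DNA and was labelled with Ovation Pico WTA. Each probe set has 1 log2 value per array in the authors' deposited table. The sources used here do not give their background correction, normalization or summarization. That the scale is log2 was read from the values, which reached from 3.06 to 14.55 over the 8 spleen arrays. A method that equalizes arrays removes any global difference in RNA between the subsets from such values.

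Of 30177 probe sets, 21789 had 1 gene symbol, 1621 several and 6767 none in the platform's annotation, with 21698 of the symbols updated through their Entrez IDs. A gene with several probe sets (999 genes) was tested by the one with the highest mean, which left 19938 genes. limma 3.58.1 in R 4.3.3 was fitted to the 8 spleen arrays with mouse as a block and subset as the term (3 residual degrees of freedom), with Benjamini-Hochberg adjustment and a threshold of 0.05. Genotype by subset (KO minus WT) and spleen minus culture were tested by limma on the within-mouse differences. On simulated data of 19938 genes, the paired fit called 12%, 66%, 100% and 100% of 50 genes each with a true log2 change of 0.25, 0.5, 1 and 2, with 4 unchanged genes called. No other genes were changed there, while 33.0% of genes were called in the data. The adjustment is stricter when fewer genes differ, so these percentages are not the recovery in the data.

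Pairing came from the mouse numbers in the labels. The deviations of a mouse's 2 arrays from their group means correlated at 0.195 and 0.231 in the KO mice and 0.0569 and 0.0184 in the WT mice, and arrays of different mice at -0.136 to 0.190. Members and gene lists were chosen with earlier results of these data known. Genes named are those used for the sort, the anchor genes, the 6 members with the largest difference of each list, and the 20 genes at either end of the comparison. These 20 were taken among called genes whose CD24+ and CD172a+ arrays did not overlap. For the other tests, up to 10 genes with the largest values among those that passed were taken. Cd207, Cd209d, Cd79a, Clec12a, Ebf1, Fcgr2b, H2-DMa, Klf4, Ly75, Mx1, Oas1a, Oasl1, Pax5, Rbpj and Scarb1 were added after their values were seen. Alternatives were no block, all 16 arrays, quantile normalization, other probe set choices, a filter on dim genes, an intensity trend, 1 genotype alone and leaving out each mouse.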

Additional observations from a re-analysis of the deposited data

Results flagged for a closer look

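The subset difference of 2 genes differed between genotypes by a test of that difference. KO minus WT of CD24+ minus CD172a+ was 2.09 for H2-Aa and 1.25 for H2-Eb1.

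All 14 genes whose subset differences the text sets against those of culture differed between spleen and culture by the same kind of test, which many other genes passed too. Those with the largest values were named because they had passed this test, so for them passing was fixed by the choice. Spleen minus culture was 5.78 for Gpr141b, 4.75 for Lima1, 4.64 for Ifi205, 4.39 for Gprc5c, 3.87 for Irf8, 1.48 for Xcr1 and 0.95 for Clec9a. It was -5.02 for Mmp12, -4.82 for Tespa1, -4.79 for Clec4a4, -4.52 for Hpgds, -4.51 for Dscam, -4.37 for Lyz2 and -0.75 for Rtp4.

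Single arrays stood apart from the other 3 of their subset for several named genes, where chance alone flags about 1 in 20 groups of 4. Both subsets of 181 genes were examined, so chance alone would flag more groups than are given here. In CD24+ cells the array of KO mouse 2 read 7.47 for Ace, above 7.0 to 7.03 in the others, and 8.60 for Cd209a, below 9.82 to 9.98. The CD24+ array of WT mouse 2 read 11.60 for Cd47, below 11.81 to 11.84. In CD172a+ cells the array of KO mouse 1 read 12.38 for Cd47, 13.06 for Itgax and 10.90 for Pgam1. The CD172a+ array of KO mouse 2 read 10.51 for Pfkp and 6.53 for S100a8, against 5.92 to 5.99 for S100a8 in the others. The CD172a+ array of WT mouse 1 read 10.53 for Cd72, and that of WT mouse 2 read 7.62 for Ccr2 and 9.68 for Zeb2. The part of other cells in these readings was not tested.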

How the results depend on the processing

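The number of genes that differed between the subsets stayed within 1.5 times of 6584 under every alternative but 2. The WT mice alone gave 4125 genes, 2002 of them higher in CD24+ cells, from 2 mice, and requiring at least 2-fold in addition left 837. With each mouse left out, 5251 to 6588 genes passed. Without the block for mouse, 6577 passed, of which 6230 were also called with it, and the genotype by subset test gave 1 gene without pairing in place of 2. That test also gave 1 gene with the 8 mice of both tissues in the fit and 1 to 7 genes with a mouse left out, 7 without KO mouse 1. H2-Aa was called in all 7 alternatives of that test and H2-Eb1 in 2. Spleen minus culture gave 4718 to 6024 genes with a mouse left out. Of the other named genes, Cd3e lost its call without KO mouse 2 or WT mouse 1 (adjusted p of 0.0565 to 0.0660 by limma) and in either genotype alone (0.0889 in KO and 0.0571 in WT mice), Batf3, Ccr7 and Il6 in WT mice alone and Oasl1 in KO mice alone. B2m passed under quantile normalization (adjusted p = 0.0222 by limma) and with an intensity trend (0.0311), and Ciita in WT mice alone (0.0430). H2-Ab1 passed without WT mouse 1 (0.0401), without the block (0.0446) and in KO mice alone (0.00191). Of the 6584 calls, 1 changed sign when the probe sets of a gene were averaged. The named genes that turned sign in a setting had not passed. In WT mice alone the differences were -0.088 for H2-Aa, -0.013 for H2-Eb1, -0.026 for H2-Ab1, -0.049 for Cd74, -0.055 for Cd79a, -0.048 for Ebf1, -0.069 for Vcam1 and 0.016 for Notch2. In KO mice alone they were -0.017 for Csf2rb, -0.021 for Irf7 and -0.020 for Pax5, and under quantile normalization -0.029 for Ebf1. With a mouse left out they were -0.101 to 0.127 for Cd79a, -0.036 to 0.086 for Csf2rb, -0.028 to 0.043 for Ebf1, -0.089 to 0.014 for Notch2, -0.031 to 0.072 for Pax5 and -0.052 to 0.280 for Vcam1. The cause was not tested. With 4 mice, small differences can be missed. In simulated data those under about 0.5 on the log2 scale often were, but far fewer genes differed there than were called here. The share missed in these data is therefore not known. Probe sets near the Y-linked readings carry little signal over background.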
